A study of Mus musculus with 16 samples.

Results

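The genes described here are Arntl, Clock, Npas2, Rora, Nfil3, Cry1 and Cry2, members of the arm of the circadian clock that is controlled through ROR response elements, together with regulators of that arm. They were taken by name, and a probe belonged to a gene where the transcript printed for it on the array design was a transcript of that gene. Each of the 7 genes had 1 probe. Arntl, Clock, Rora, Nfil3 and Cry2 were well above background on all 16 arrays, and these 5 were tested among 22126 features, 14088 of them named genes. Npas2 and Cry1 were well above background on 2 of the 16 arrays each and were not tested.

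RNA was taken from the soleus, a mostly slow-fibred muscle of the hindlimb, of male mice for which oxygen went down gradually to 10% and was then held. The 4 groups were day 0, with 4 RNA samples, day 3, with 3 RNA samples, and day 7, with 3 RNA samples, all before or during the lowering, and day 14, with 4 RNA samples, after a week at the held level. Genotype, strain, age and the hour at which muscles were taken are not given in the labels, and neither is whether the RNA samples came from different mice, so the p-values measure the spread between these RNA samples. The design text names 4 muscles for each day, and any further day 3 or day 7 muscle was not analysed here.

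In the core of the mammalian clock, ARNTL (also called BMAL1) pairs with CLOCK or with NPAS2, and the pair switches on genes that carry E-boxes, among them the Per, Cry and Nr1d genes and Dbp. The PER and CRY proteins inhibit that pair. The products of Nr1d1 and Nr1d2 repress, and ROR proteins such as RORA activate, genes that carry ROR response elements, among them Arntl, Nfil3 and Cry1, and NFIL3 in turn represses genes that carry D-boxes, which DBP, TEF and HLF activate. Skeletal muscle has a clock of its own, in which Arntl and Nfil3 are high at hours when Dbp is low.

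A level is the log2 background-subtracted intensity of a probe minus the 75th percentile of all non-control spots of its array, so 0 is that percentile. The day 3 and day 7 arrays and 2 of the day 0 arrays lay on slide 1, and the day 14 arrays and 4 of the day 0 arrays lay on slide 2. The RNA of day 0 samples 1 and 2 was hybridised on each slide. Slide 1 was brighter, with 48.3 to 55.3% of spots well above background and a 75th percentile of 203 to 271 intensity units, against 37.9 to 42.9% and 49.1 to 77.0 units on slide 2. Levels below are slide-adjusted, which means that the fitted slide term of each gene was subtracted from its slide 1 arrays, and they are given per RNA sample. The 8 slow muscle markers (Acta1, Ckm, Mb, Myh7, Tnni1, Tnnc1, Myl2, Tnnt1) were all measured, and their mean level lay between 9.12 and 9.59 in every RNA sample. In whole muscle, fewer cells of a type and less RNA per cell cannot be told apart.

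The same RNA run on both slides gave a direct reading of the slide term. Slide 1 minus slide 2, Arntl differed by 0.12 and 0.17 on the log2 scale in day 0 RNA samples 1 and 2, and Cry2 by -0.13 and -0.26. Nfil3 differed by -0.26 and -0.41 and Clock by -0.37 and -0.20. Rora had the widest gaps of the 5, at -0.57 and -0.52, which is more than any of its fitted differences between days. The plot of levels on every array shows these pairs unadjusted.

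**Figure D1:**
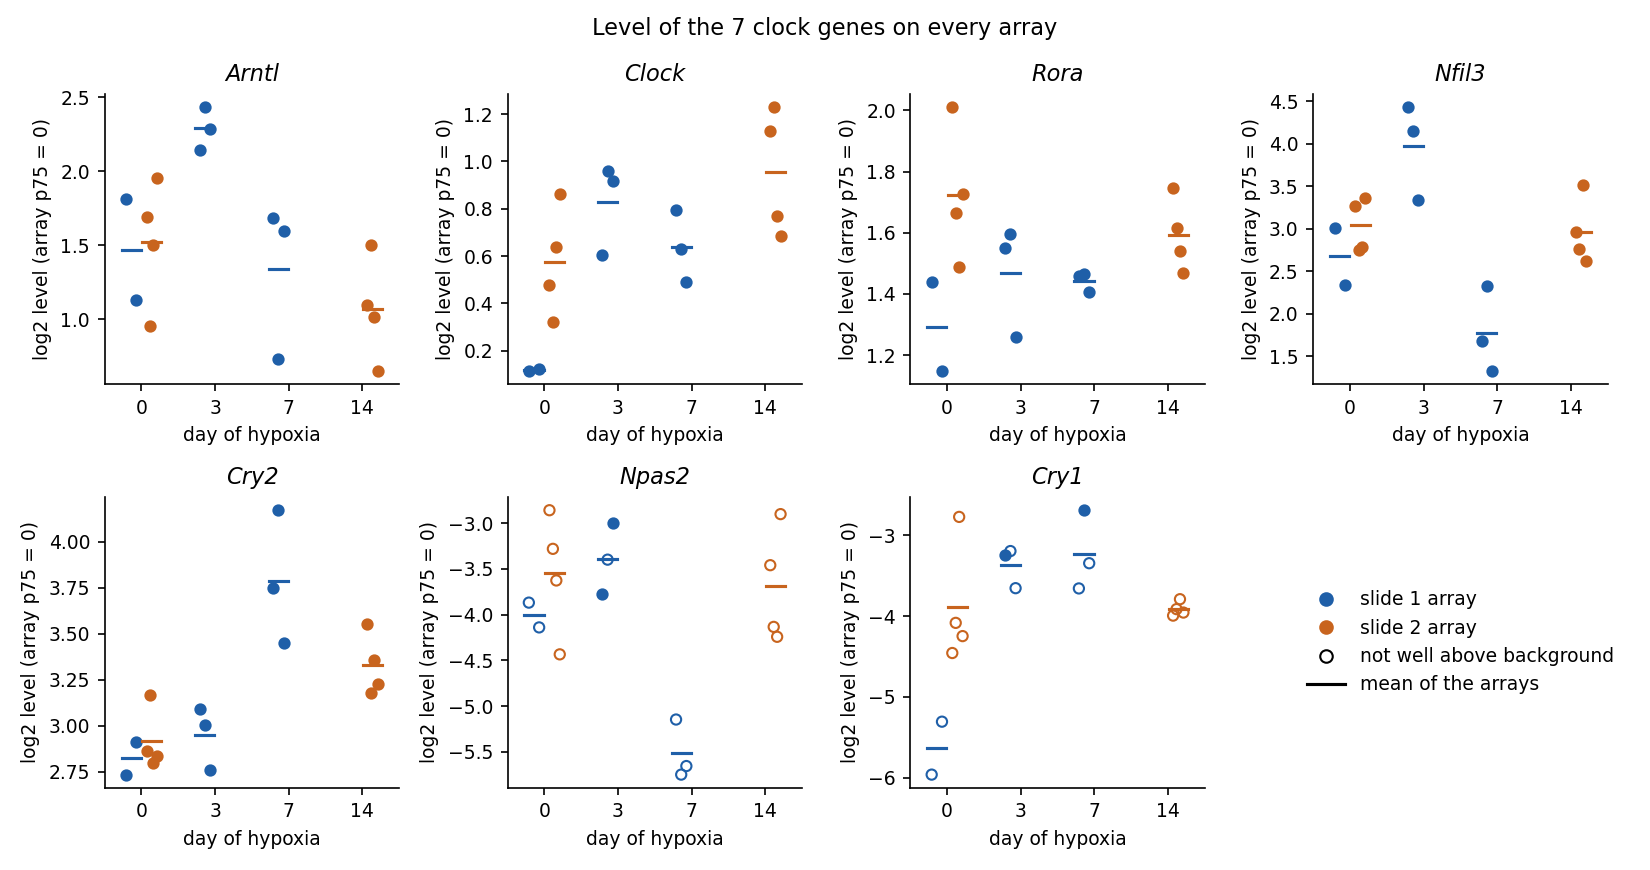
Level of each of the 7 genes on every array (log2, 0 is the array's 75th percentile) by day of hypoxia, before slide adjustment, in blue for slide 1 and orange for slide 2, with a bar at the mean of the arrays. Open circles, nearly all points of Npas2 and Cry1, were not well above background, and Nfil3 and Arntl were high on the day 3 arrays while Cry2 was high on the day 7 arrays.

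The partners that form the activating pair were read first. Arntl had slide-adjusted levels of 1.73, 1.02, 1.50 and 1.95 at day 0, 2.11, 2.40 and 2.25 at day 3, 1.65, 0.70 and 1.56 at day 7, and 1.09, 1.50, 1.02 and 0.65 at day 14. All 3 day 3 samples lay above every sample of the other days, and days 0, 7 and 14 overlapped. The day means were 1.55 ± 0.40, 2.25 ± 0.15, 1.30 ± 0.52 and 1.07 ± 0.35 (SD, n = 4, 3, 3 and 4). In limma's moderated test, day 3 exceeded day 0 by 0.73 ± 0.31 (log2 difference ± SE, adjusted p = 0.165), day 7 was below day 3 by 0.95 (-0.95 ± 0.29, adjusted p = 0.144), and day 14 was below day 3 by 1.19 (-1.19 ± 0.36, adjusted p = 0.154). None of these passed the threshold of 0.05, and the F-test over the 3 differences from day 0 did not either (adjusted p = 0.0604). Day 7 against day 3 passed in 1 of 28 alternatives (adjusted p between 0.0229 and 0.425) and day 14 against day 3 in 3 of 27 (between 0.00953 and 0.475). In order of level the days ran 14, 7, 0 and 3, and no pair of neighbours in that order passed (adjusted p = 0.747, 0.651 and 0.165).

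Clock, which encodes the partner of ARNTL, had slide-adjusted levels of 0.49, 0.41, 0.64 and 0.86 at day 0, 0.98, 1.34 and 1.30 at day 3, 1.18, 1.01 and 0.87 at day 7, and 1.13, 1.23, 0.77 and 0.69 at day 14. Its 3 day 3 samples and its 3 day 7 samples lay above all 4 day 0 samples, narrowly in the case of day 7, and day 14 overlapped with each of the other days. The day means were 0.60 ± 0.20, 1.21 ± 0.19, 1.02 ± 0.15 and 0.95 ± 0.27. Day 3 exceeded day 0 by 0.63 ± 0.19 (adjusted p = 0.0614), day 7 exceeded day 0 by 0.44 ± 0.19 (adjusted p = 0.102), and day 14 exceeded day 0 by 0.38 ± 0.15 (adjusted p = 0.184). The day 3 difference missed the threshold as reported but passed in 5 of 28 alternatives, with adjusted p between 0.00401 and 0.412 over all of them. Neighbours in the order day 0, 14, 7 and 3 did not pass (adjusted p = 0.184, 0.892 and 0.662).

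Npas2, the alternative partner of ARNTL, stayed close to background. It was well above background on the arrays of day 3 RNA samples 1 and 4, at intensities of 18.5 and 25.5, and on no array of days 0, 7 and 14. On slide 1 the day 7 arrays read 4.03 to 7.45 and the day 0 arrays 12.4 and 18.55. On slide 2 the day 14 arrays read 3.33 to 8.60 and the day 0 arrays 3.40 to 10.6. Readings this close to background are given with no fold.

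Rora, whose product activates through ROR response elements, was the flattest of the 5. Its slide-adjusted levels were 1.97, 1.65, 1.49 and 1.73 at day 0, 2.03, 2.08 and 1.74 at day 3, 1.94, 1.95 and 1.89 at day 7, and 1.75, 1.62, 1.54 and 1.47 at day 14. Each later day overlapped with day 0. Day 3 minus day 0 was 0.23 (95% interval -0.08 to 0.54), day 7 minus day 0 was 0.20 (-0.11 to 0.51) and day 14 minus day 0 was -0.13 (-0.38 to 0.12), with adjusted p of 0.351, 0.343 and 0.555. The day 3 and day 7 differences turned negative with no slide term, at -0.11 and -0.13. The day means were 1.71 ± 0.20, 1.95 ± 0.18, 1.93 ± 0.03 and 1.59 ± 0.12, and in the order day 14, 0, 7 and 3 there were no neighbours past the threshold (adjusted p = 0.555, 0.343 and 0.957).

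Arntl and Nfil3 were the members whose promoter windows held a ROR response element as spelled here. The stretches are printed because this element defines the arm, with the element in capitals, read 5′ to 3′ on the strand of the gene from RefSeq windows of GRCm38.p6 that run from 250 bases before to 50 bases after a start site. The Arntl stretch is chr7:113207529-113207558, plus strand, bases 19 to 48 after one of its start sites, and the Nfil3 stretch is chr13:52981040-52981189, minus strand, the 150 bases before its start site.
Arntl: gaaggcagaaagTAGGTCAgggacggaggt
Nfil3: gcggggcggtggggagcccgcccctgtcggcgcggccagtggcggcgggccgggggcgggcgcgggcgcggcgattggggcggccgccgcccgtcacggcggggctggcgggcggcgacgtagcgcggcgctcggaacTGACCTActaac

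All 7 genes had at least 1 window, and the element was searched on both strands as TAGGTCA and as TGGGTCA. The first spelling occurred in 2.61% of all 32851 windows and in 2.97% of 27025 genes. Of the 7 genes, 2 held it, Nfil3 on the opposite strand, as TGACCTA, starting 12 bases before the start site. The second spelling occurred in 3.98% of windows, in 4.57% of genes and in none of the 7 genes. A match is a description of these letters and not evidence of a bound site.

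Nfil3, which encodes the repressor of D-box genes, had the widest differences among the 5. Its slide-adjusted levels were 3.31, 2.72, 2.79 and 3.37 at day 0, 4.79, 4.51 and 3.69 at day 3, 2.04, 2.68 and 1.68 at day 7, and 2.96, 2.75, 3.51 and 2.62 at day 14. The 3 day 3 samples stood above all others, the 3 day 7 samples stood below all 4 day 0 samples, and day 14 lay within reach of day 0. The day means were 3.05 ± 0.34, 4.33 ± 0.57, 2.13 ± 0.50 and 2.96 ± 0.39.

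Nfil3 rose at day 3, by 1.29 ± 0.35 on the log2 scale or 2.44-fold over day 0 (n = 3 and 4, limma, adjusted p = 0.0478), and it was the 1 called member of the 5 in that comparison, in which 6.09% of all features were called. The call stood close to the threshold: it ended in 8 of 14 other settings and when any of 10 of the 14 RNA samples was left out, with the difference between 0.93 and 1.61. The difference was 1.03 without day 0 RNA sample 2 (adjusted p = 0.361) and 1.61 without day 3 RNA sample 4 (adjusted p = 0.0243). Within slide 1 alone it was 1.30 ± 0.40 (adjusted p = 0.153). The other samples whose omission ended the call were RNA samples 1, 3 and 4 of day 0, 1 and 2 of day 3, 1 of day 7, and 1, 2 and 4 of day 14.

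Day 7 against day 3 compares RNA run on 1 slide, while oxygen was still going down. Nfil3 fell by 2.20 ± 0.33 on the log2 scale, to 0.218 of its day 3 level (n = 3 each, limma, adjusted p = 0.00965), the 26th smallest p of 22126 features. With Cry2 it made 2 of 5 members called there, against 0.678% of all features. The call ended without day 3 RNA sample 1 (-1.97, adjusted p = 0.056) and without day 7 RNA sample 1 (-2.15, adjusted p = 0.0564), and in a fit of slide 1 alone, where the value was the same and the adjusted p was 0.121. At day 7 Nfil3 stood 0.91 below day 0 (-0.91 ± 0.35, adjusted p = 0.077), which did not pass but did in 8 of 28 alternatives. Day 14 stood 0.83 ± 0.41 above day 7 (adjusted p = 0.254) and 1.37 below day 3 (-1.37 ± 0.41, adjusted p = 0.148). Day 14 minus day 0 was -0.08, with a 95% interval from -0.69 to 0.53.

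Marker lists of other cells and of slow fibres were read in the same samples. The adipocyte list (Adipoq, Plin1, Cfd and Fabp4 measured, Lep below the filter) had a mean level of 4.24 to 4.93 in the day 3 samples, against 3.48 to 3.79 at day 0, with 3 of 4 members at an unadjusted p under 0.05 and 0 called by limma. The macrophage list (5 of 6 measured, Cd68 below the filter) had a mean level of 0.58 to 2.07 at day 3, against 0.68 to 1.27 at day 0, with 0 called and 2 at an unadjusted p under 0.05. It stood at -0.09 to 0.18 at day 7, where 1 of the 5 was called lower than at day 3. The 8 fast fibre markers averaged 7.97 to 8.12 at day 3, against 6.69 to 7.54 at day 0, with 0 called higher and 1 called lower. They went both ways. Myh4 (day means 4.79 at day 0 and 9.89 at day 3), Pvalb, Actn3 and Tnni2 were higher at day 3 without overlap. Tnnt3 and Mylpf were lower without overlap, and Myh1 and Myh2 overlapped. The 4 erythroid markers averaged 2.23 to 2.90, against 3.09 to 3.74 at day 0, with 1 called lower. The 5 endothelial markers averaged 1.34 to 1.49, against 1.61 to 1.77 at day 0, with 1 called lower. These also went both ways, with Pecam1 and Tie1 lower and Kdr higher without overlap, while Cdh5 and Tek overlapped. The 8 slow muscle markers averaged 9.12 to 9.36, against 9.43 to 9.59 at day 0, with 1 called lower. The part of these cells in the Nfil3 values was not tested, and neither was that of the hour of collection.

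Cry1 and Cry2 encode the cryptochromes, which inhibit the ARNTL and CLOCK pair. Stretches upstream of their starts are shown because Cry1 held the E-box, which that pair binds, and Cry2 held the shorter core that hypoxia-inducible factors bind, each in capitals. Cry1 also held that shorter core outside its E-box, starting 78 bases before the start site and left in lower case. The Cry1 stretch is chr10:85185055-85185154, minus strand, the 100 bases before the start site, and the Cry2 stretch is chr2:92434070-92434269, minus strand, the 200 bases before it, both from RefSeq on GRCm38.p6.
Cry1: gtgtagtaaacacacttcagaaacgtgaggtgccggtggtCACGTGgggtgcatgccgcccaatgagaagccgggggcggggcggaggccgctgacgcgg
Cry2: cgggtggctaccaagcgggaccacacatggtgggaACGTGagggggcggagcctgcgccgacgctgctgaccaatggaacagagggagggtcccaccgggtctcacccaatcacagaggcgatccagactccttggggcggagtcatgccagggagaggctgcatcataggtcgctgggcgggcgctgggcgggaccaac

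The E-box, searched as CACGTG, occurred in 7.15% of all windows and in 8.09% of all genes. Of the 7 genes, 1 held it, Cry1, starting 60 bases before its start site. The core ACGTG, which every such E-box also contains, occurred on either strand in 19.6% of windows and in 21.8% of genes. Of the 7 genes, 4 held it, Npas2, Rora, Cry1 and Cry2, in Cry2 165 bases before the start site. The D-box TTATGTAA occurred in 0.938% of windows, in 1.11% of genes and in none of the 7 genes. The windows of Clock held none of the motifs searched.

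Cry1 was well above background on the arrays of day 3 RNA sample 1 and day 7 RNA sample 2 only. On slide 1 its intensity was 4.35 and 5.50 on the 2 day 0 arrays, 16.1 to 26.6 on the day 3 arrays and 20.0 to 34.4 on the day 7 arrays. On slide 2 it read 3.08 to 4.84 at day 14 and 3.50 to 11.1 at day 0. As an unadjusted level, day 0 RNA sample 3 on slide 2 stood at -2.78, above the day 3 arrays at -3.66 to -3.20. These readings too are given with no fold. Cry1 was tested only in the alternative with no filter on dim probes. There limma called it higher at day 3 than at day 0 (adjusted p = 0.0358) and at day 7 than at day 0 (0.0096). It was called lower at day 14 than at day 7 (0.0422). No day 0 or day 14 array was well above background, so these calls rest on readings at background and do not measure a change.

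Cry2 behaved differently from Nfil3, with its highest level at day 7. Its slide-adjusted levels were 2.87, 3.11, 2.80 and 2.84 at day 0, 3.23, 3.14 and 2.90 at day 3, 3.88, 4.31 and 3.59 at day 7, and 3.55, 3.18, 3.36 and 3.23 at day 14. Day 7 lay above every sample of the other days, day 14 lay above all day 0 samples, and day 3 overlapped with day 0. The day means were 2.90 ± 0.14, 3.09 ± 0.17, 3.93 ± 0.36 and 3.33 ± 0.17.

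At day 7 Cry2 exceeded day 0 by 1.01 ± 0.19 on the log2 scale, or 2.01-fold (n = 3 and 4, limma, adjusted p = 0.00403). It was 1 of 5 members called in that comparison, in which 23.8% of all features were called. That share of all features was between 9.46 and 40.7% in the alternatives, except without day 0 RNA sample 2, where 103 features were called. The call held in 27 of 28 alternatives, with differences between 0.82 and 1.18, and ended only without day 0 RNA sample 2 (1.07, adjusted p = 0.0618). Within slide 1 it was 0.97 ± 0.22 (adjusted p = 0.0433).

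Cry2 also exceeded its day 3 level at day 7, by 0.84 ± 0.17 (1.79-fold, adjusted p = 0.0447). This call held in only 7 of 28 alternatives and ended when any of 12 of the 14 RNA samples was left out, day 7 RNA sample 4 and day 14 RNA sample 1 being the exceptions. The difference ranged from 0.65 without day 7 RNA sample 2 (adjusted p = 0.13) to 1.01 without day 7 RNA sample 4 (adjusted p = 0.0221). In the order day 0, 3, 14 and 7, neighbours did not pass, with adjusted p of 0.6, 0.647 and 0.132. Day 14 exceeded day 0 by 0.41 ± 0.15 (adjusted p = 0.153).

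Beside the rise of Cry2 at day 7, the neutrophil list (S100a8, S100a9, Retnlg, Csf3r) had a mean level of -0.62 to 0.18, against 0.89 to 2.54 at day 0, with 1 of 4 called higher and 2 lower. The macrophage list stood at -0.09 to 0.18, against 0.68 to 1.27 at day 0, with 2 of 5 called lower. The 8 slow muscle markers averaged 9.13 to 9.31, against 9.43 to 9.59 at day 0, with 2 called lower. The 5 endothelial markers averaged 1.16 to 1.57, against 1.61 to 1.77 at day 0, with 2 called lower. Among these, Pecam1 and Tie1 were lower and Kdr higher than at day 0 without overlap, while Cdh5 and Tek overlapped. The part of these shifts in the Cry2 values was not tested.

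**Figure D2:**
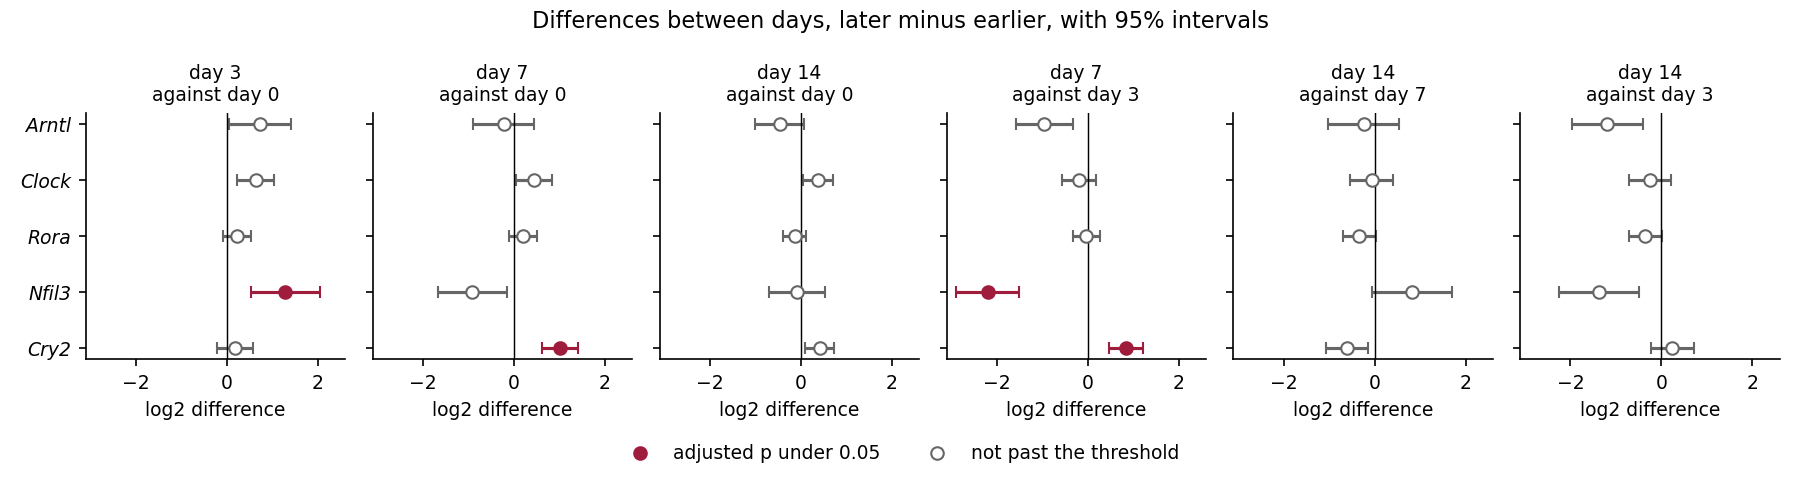
Fitted log2 differences between days, later minus earlier, with 95% intervals, for the 5 tested genes, one panel per comparison, filled in red where the adjusted p was under 0.05. Filled points are Nfil3 in day 3 against day 0, Cry2 in day 7 against day 0, and both genes, in opposite directions, in day 7 against day 3.

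Day 14, after a week at the held oxygen level, did not differ from day 0 for any of the 5 genes at the threshold, in a comparison in which 0.402% of all features were called, and 14% with no slide term. At an unadjusted p under 0.05 there were 2 of 5, Clock and Cry2, both higher. Day 14 against day 7 had 0 of 5 called by limma and 1 at an unadjusted p under 0.05, Cry2, against 2.3% of features called. Day 14 against day 3 had 0 of 5 called and 2 at an unadjusted p under 0.05, Arntl and Nfil3, both lower, against 0.741% of features called. In the F-test over the 3 differences from day 0, Nfil3 (adjusted p = 0.0103) and Cry2 (adjusted p = 0.0123) were called, 2 of 5 against 17.1% of all features, and Clock (adjusted p = 0.0653) and Rora (adjusted p = 0.361) were not.

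The median difference of the 5 genes was 0.63 for day 3 against day 0, against 0.06 over all features, and all 5 were positive. Of the 5, 3 had day 3 samples that did not overlap with day 0, all of them higher (Arntl, Clock and Nfil3), against 30.7% of all features. For day 7 against day 3 the median was -0.19, against 0.05 over all features, with 1 positive and 4 negative. The median for day 14 against day 0 was -0.08, against 0.06 over all features.

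Days did not overlap for 3 of 5 genes in day 7 against day 0 (Clock and Cry2 higher, Nfil3 lower), against 41.7% of all features, and for 3 of 5 in day 7 against day 3 (Cry2 higher, Arntl and Nfil3 lower), against 17.2%. The count was 1 of 5 in day 14 against day 0 (Cry2 higher), against 15.1%, 2 of 5 in day 14 against day 7 (Cry2 and Rora lower), against 32.5%, and 2 of 5 in day 14 against day 3 (Arntl and Nfil3 lower), against 23.2%.

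The companion genes, 24 other genes of the clock of which 22 were measured (Arntl2 and Fbxl21 were below the filter), were read over the same samples. In day 3 against day 0, 1 was called higher and 3 lower, against 2.27% of features called higher and 3.82% lower. In day 7 against day 3, 6 were called higher and 0 lower, against 0.447% and 0.23% of features, and in day 14 against day 3, 4 were called higher and 0 lower, against 0.56% and 0.181%. The genes called higher in each of these comparisons include Ciart, whose day 3 readings were not well above background. In day 7 against day 0, 5 were called higher and 1 lower, against 15.6% and 8.14% of features. Day 14 against day 0 and day 14 against day 7 had 0 called, with 9 and 5 at an unadjusted p under 0.05. The members and the companions share the same day 3 and day 7 samples, so their values are set side by side here and not tested against each other. In fits of slide 1 alone, 0 features were called in day 3 against day 0 and 0 in day 7 against day 3, so no companion was.

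Dbp, a D-box activator and a target of the ARNTL and CLOCK pair, was lowest on the day on which Nfil3 and Arntl were highest. Its slide-adjusted levels were 4.66, 5.998, 5.15 and 4.64 at day 0, 2.92, 2.83 and 2.81 at day 3, 6.11, 6.30 and 5.92 at day 7, and 6.12, 5.83, 6.06 and 6.55 at day 14. The 3 day 3 samples, in which Nfil3 and Arntl were highest, were the lowest of all for Dbp, and days 7 and 14 overlapped. Dbp exceeded its day 3 level by 3.26 ± 0.32 at day 7 (adjusted p = 0.00146), the smallest p of all features in that comparison, and by 3.28 ± 0.40 at day 14 (adjusted p = 0.00546).

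Per3, which encodes a PER protein, had slide-adjusted levels of -1.46, -0.70, -1.19 and -1.85 at day 0, -2.37, -2.01 and -2.55 at day 3, -0.61, -0.44 and -0.35 at day 7, and -0.04, -0.57, -0.52 and -0.23 at day 14. Day 3 was below every other day and days 7 and 14 were above day 0, in both cases without overlap. Day 7 exceeded day 3 by 1.84 ± 0.26 (adjusted p = 0.00675) and day 14 exceeded day 3 by 1.97 ± 0.33 (adjusted p = 0.0207). With normexp background correction these differences were 0.98 and 0.85. The day 7 call ended within slide 1 (adjusted p = 0.0938). The day 14 call ended without day 0 RNA sample 2 (adjusted p = 0.0695) or day 3 RNA sample 1 (adjusted p = 0.0554) and with no RNA sample block (adjusted p = 0.0649).

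Ciart, which encodes a repressor of the ARNTL and CLOCK pair, was well above background on 0 of 3 day 3 arrays and on 3 of 3 day 7 arrays. It was higher at day 7 than at day 3 (limma, adjusted p = 0.0268), by 6.34-fold when set against a floor. At day 14 it was well above background on 3 of 4 arrays. It was then higher than at day 3 (adjusted p = 0.039), by 7.54-fold against the same floor. These folds use the mean of the later day, before slide adjustment. The floor was the lowest level that counted as above background on each day 3 array. Some probes not well above background read higher than that level, so the folds are not strict lower bounds. The adjusted p-values set the later days against day 3 intensities of 3.56 to 5.59. Both calls therefore depend on readings at background, and the p-values do not measure the size of the change. The first call ended without any 1 of RNA samples 1 and 4 of day 3 and 1 and 2 of day 7 (adjusted p up to 0.103), and the second without any 1 of 12 of the 14 RNA samples (up to 0.0953). The first also ended in 6 of 13 other settings (up to 0.157) and the second in 2 of 12 (up to 0.123). The fitted differences were 4.72 and 5.44, and with normexp 1.63 and 1.54.

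The upstream stretches of Ciart and Per3 are shown because they hold the elements through which ARNTL with CLOCK and NFIL3 act, in capitals. The Ciart stretch, chr3:95882229-95882348 on the minus strand, is the 120 bases before the start site and holds 3 E-boxes. The Per3 stretch, chr4:151044776-151044875 on the minus strand, spans bases 210 to 111 before the start site and holds 2 D-boxes. Both are from RefSeq on GRCm38.p6.
Ciart: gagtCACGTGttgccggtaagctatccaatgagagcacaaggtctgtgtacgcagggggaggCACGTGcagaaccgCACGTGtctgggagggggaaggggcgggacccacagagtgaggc
Per3: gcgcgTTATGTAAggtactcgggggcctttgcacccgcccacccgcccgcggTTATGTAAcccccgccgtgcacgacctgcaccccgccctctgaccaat

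Of the 17 companion genes with a window, 4 held the E-box and 2 held the D-box, against 8.09% and 1.11% of all genes. Dbp held neither of them in its window, and 0 of the 17 held either spelling of the ROR response element.

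Tef, the D-box activator related to Dbp, had its highest level at day 7, as Cry2 had. Its slide-adjusted levels were 5.75, 5.91, 5.80 and 5.84 at day 0, 5.75, 5.88 and 5.35 at day 3, 6.78, 7.10 and 6.56 at day 7, and 6.11, 6.14, 6.21 and 6.31 at day 14. Day 7 stood above every other day, and day 14 stood above days 0 and 3. Tef exceeded day 0 by 0.99 ± 0.16 at day 7 (adjusted p = 0.00308, and 0.0615 without day 0 RNA sample 2) and exceeded day 3 by 1.16 ± 0.15 (adjusted p = 0.00434).

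Of 22 companions, 5 were called higher at day 7 than at day 0, against 15.6% of all features. Among them were genes that act on the stability of PER proteins, but not every companion that acts on PER proteins was called. Btrc and Fbxw11 encode recognition subunits of ubiquitin ligases for PER proteins, and Csnk1d encodes a kinase of PER proteins. Day 7 minus day 0 was 0.98 ± 0.16 for Btrc (adjusted p = 0.00325), 0.78 ± 0.15 for Fbxw11 (adjusted p = 0.00427) and 0.70 ± 0.13 for Csnk1d (adjusted p = 0.00464). With Tef they make 4 of the 5 companions called higher there. Fbxw11 was also the 1 companion called higher at day 3 than at day 0 (0.59 ± 0.15, adjusted p = 0.0342). With the mean over all probes of the gene the Csnk1d difference was 0.08 (adjusted p = 0.637), so its probes disagreed. Without day 0 RNA sample 2 none of these day 7 calls held, with adjusted p of 0.0615 for Btrc and 0.0763 for Fbxw11 and Csnk1d. The day 3 call of Fbxw11 ended without samples 1 or 2 of either day and in 6 of 14 other settings, with a difference as low as 0.18 (adjusted p = 0.424) without the slide 1 arrays of day 0 and with no slide term.

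The Nr1d genes encode the repressors of ROR response elements, and their readings rested on the slide term to different degrees. Nr1d2 exceeded day 3 at day 7 by 0.94 ± 0.16 (adjusted p = 0.0221), with both days on 1 slide, a call that ended without samples 1 or 4 of day 3 or samples 1 or 2 of day 7 (adjusted p = 0.0702 to 0.0968) and in 3 of 14 other settings (up to 0.17). Nr1d1 stood 2.07 below day 0 at day 3 (-2.07 ± 0.31, adjusted p = 0.00819, and 0.18 without day 0 RNA sample 2), while its slide 1 minus slide 2 gap in day 0 RNA samples 1 and 2 was 1.47 and 1.78. That call also ended within slide 1 (-2.18, adjusted p = 0.11), with no slide term (-0.99, adjusted p = 0.252) and when the slide 1 arrays of day 0 were left out as well (-0.32, adjusted p = 0.543). Read on slide 1 alone without adjustment, Nr1d1 was at 1.56 to 2.10 at day 3, 2.15 to 3.37 at day 7 and 3.80 to 4.09 on the 2 day 0 arrays, so day 3 was below day 0 on these few arrays. The day 7 difference of Nr1d1, -0.97 ± 0.31 (adjusted p = 0.0368), turned positive without the slide term and was not called without samples 1 or 2 of either day. The day 14 minus day 3 difference of 1.84 ± 0.36 (adjusted p = 0.0371) was not held in 18 of 27 alternatives.

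**Figure D3:**
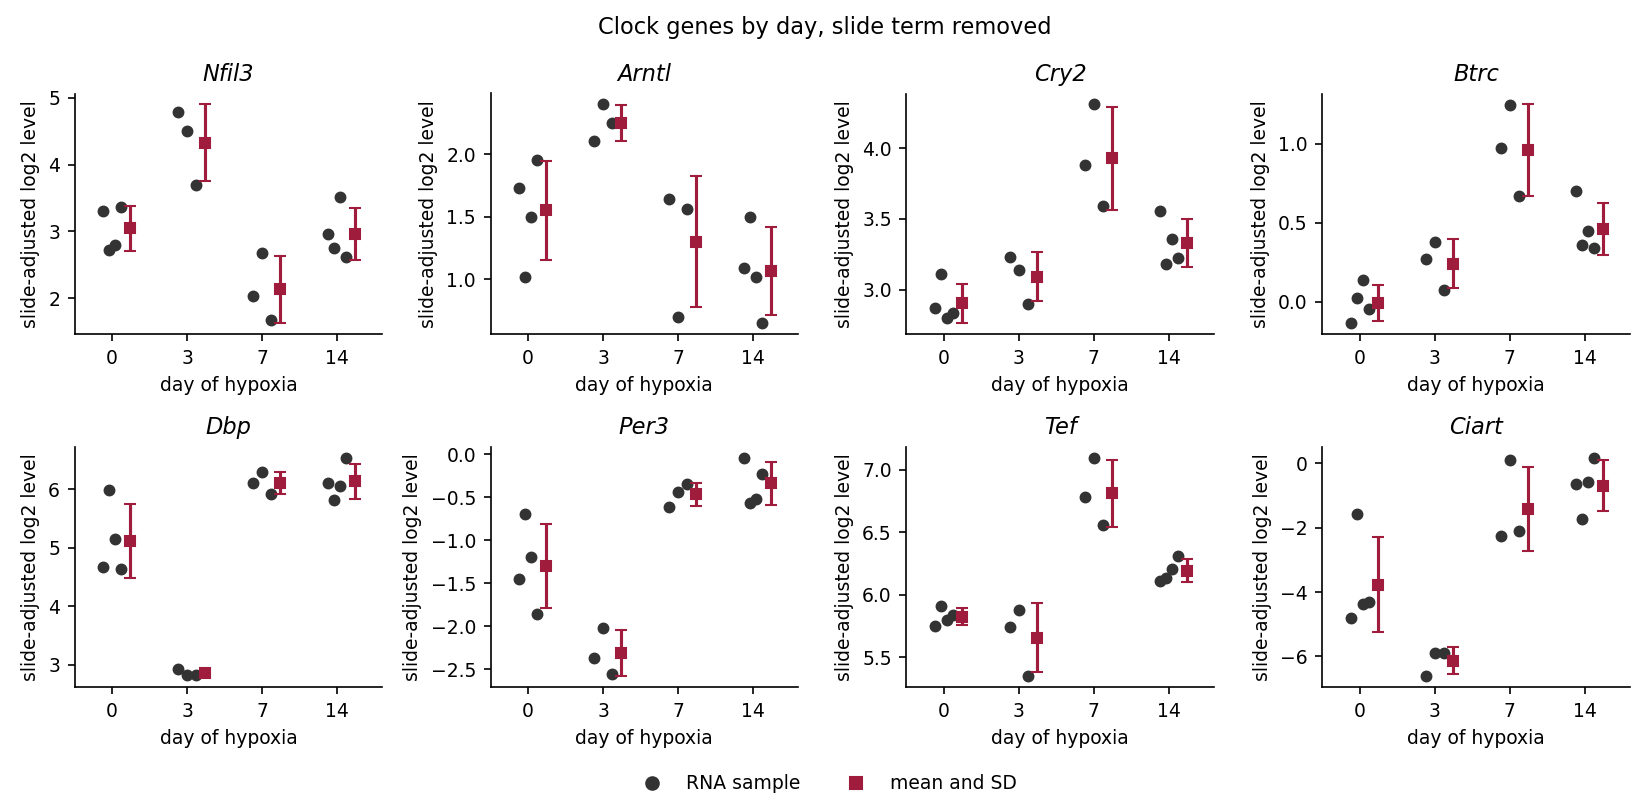
Slide-adjusted log2 level by day of hypoxia for Nfil3, Arntl, Cry2, Btrc, Dbp, Per3, Tef and Ciart, with a point per RNA sample and a square with bars for the mean and SD (n = 4, 3, 3 and 4). Nfil3 and Arntl are highest at day 3, where Dbp, Per3 and Ciart are lowest, and Cry2, Btrc and Tef are highest at day 7. The day 3 points of Ciart were not well above background.

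The genes whose levels ran most like those of the 2 members called by the F-test were ranked by Pearson correlation over the 14 RNA samples, among 10373 named genes well above background on all arrays. The samples share days and slides, so these values describe likeness and carry no test. Nfil3 was most like Sox9 (0.893), which encodes a transcription factor of cartilage and tendon, Mrap (0.879), which encodes an accessory protein of melanocortin receptors, and Hp (0.868), which encodes haptoglobin. It was most opposite to 1190005I06Rik (-0.878), with Mrnip (-0.849) also among the most opposite.

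Cry2 was most like Btrc (0.966), Zfp407 (0.939) and Mtf2 (0.934), and most opposite to Esyt1 (-0.882), Set (-0.879) and Folr2 (-0.872). Btrc, the closest, is a companion clock gene. Its slide-adjusted levels were -0.14, 0.02, 0.13 and -0.05 at day 0, 0.27, 0.38 and 0.07 at day 3, 0.97, 1.24 and 0.67 at day 7, and 0.70, 0.36, 0.45 and 0.34 at day 14. As for Cry2, day 7 RNA sample 2 was the highest of all 14 and day 14 RNA sample 1 the highest of its day. Btrc was picked for its correlation over these same samples, so this match is part of that choice and adds nothing to it.

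**Figure D4:**
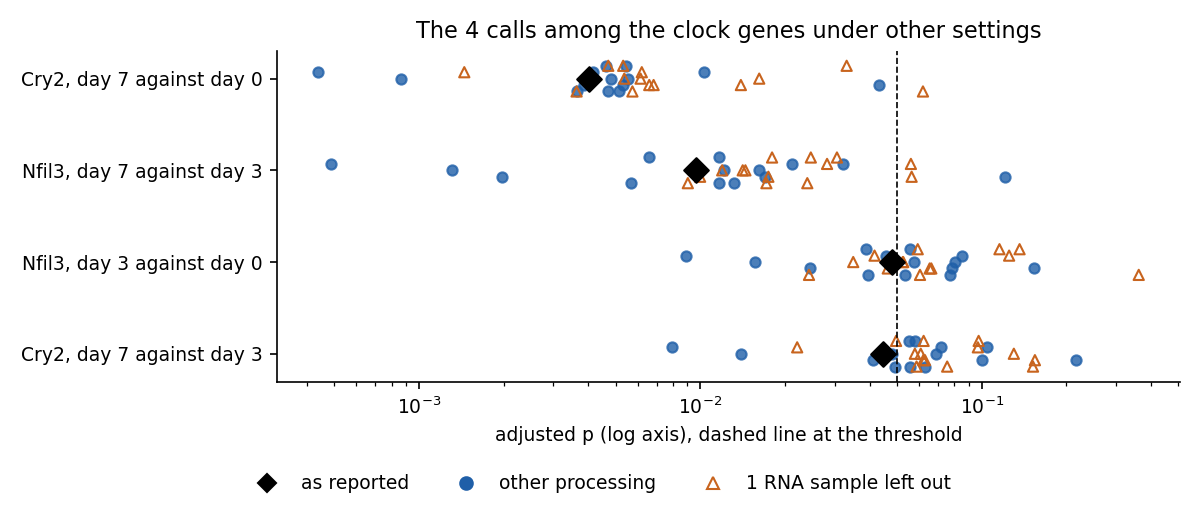
Adjusted p (log axis) of the 4 calls among the 5 tested genes, as a diamond for the value reported, blue circles for other processing and open triangles for fits with 1 RNA sample left out, with a dashed line at 0.05. Cry2 in day 7 against day 0 lies left of the line in 27 of 28 alternatives and Nfil3 in day 7 against day 3 in 25, while the other calls straddle it, with 10 for Nfil3 in day 3 against day 0 and 7 for Cry2 in day 7 against day 3.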

How the data were processed

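Per the file headers, the deposited scanner files were written by Agilent Feature Extraction 11.0.1.1 and hold a linear intensity for each spot, background-subtracted and detrended but not scaled between arrays. Their array design refers to mm9. The series value table, also a deposited intensity and made by steps not given in the sources used here, served as an alternative. Its column medians were 45.1 to 46.4, and its centring is unknown.

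Processed intensity was put on the log2 scale, the 75th percentile of the array's non-control spots was subtracted, and spots of a probe were averaged. Transcripts were matched to RefSeq symbols, so that 49.7% of 55681 probes had 1 symbol. A probe had to be well above background on 3 or more of 16 arrays (29459 probes), and each gene was represented by its brightest probe. Days were compared with limma 3.58.1 (R 4.3.3, statmod 1.5.0), 2-sided, with day and slide as fixed terms and RNA sample as a random block (correlation 0.448, 11 residual and 2.45 prior degrees of freedom). The Benjamini-Hochberg adjustment ran over all 22126 features, and called means an adjusted p under 0.05. The flag columns of the deposited scanner files were used for background and outliers. No spot was saturated, and the number of arrays limits the precision.

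All 7 members were named, as were companion genes called in any comparison. For the genes called by the F-test, the 3 most alike and 3 most opposite genes were added. Some genes are not reported here. Members and lists were chosen with earlier results of these data known. Alternatives changed the slide term, scaling, background correction, filter, probe rule, blocks and samples. Files held no mean spot signal, so normexp (offset 50) used the median signal. Figures and motif searches used pandas 2.3.3, NumPy 2.4.6 and Matplotlib 3.10.9 under Python 3.11.15.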

Additional observations from a re-analysis of the deposited data

How the results depend on the processing

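The calls were recomputed under 28 alternatives, or 27 for day 14 against days 3 and 7. Over the tested genes and named companions, 1156 values kept direction and side of the threshold, 176 lost it, 27 gained it and 25 turned direction, and the cause was not tested. Day 14 lies on another slide than days 3 and 7, so those comparisons could not be made within a slide. Without day 0 RNA sample 1 or 2 the correlation of arrays of 1 RNA could not be estimated, and that of all arrays was used.

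Members called (1 in day 3 against day 0, 1 in day 7 against day 0, 0 in day 14 against day 0, 2 in day 7 against day 3, 0 in day 14 against day 7, 0 in day 14 against day 3, and 2 by F-test) became, with no slide term, 0, 2, 2, 1, 1 and 1 in the pairwise comparisons. Without the slide 1 arrays of day 0 and with no slide term, day 3 against day 0 had 0, day 7 against day 0 had 2, day 7 against day 3 had 1, day 14 against day 7 had 1 and day 14 against day 3 had 2. Within the slide that holds both days, 0 were called in day 3 against day 0 and 0 in day 7 against day 3. With normexp, day 3 against day 0 had 2, day 7 against day 0 had 3, day 14 against day 7 had 1, day 14 against day 3 had 2 and the F-test had 4. Day 7 against day 0 had 2 with quantile normalization, with the percentile over probes above background everywhere, when probes had to be above background everywhere, with no filter and with the series value table. Day 3 against day 0 had 0 with the median, the mean over probes and every probe as its own feature, and 2 when probes had to be above background everywhere and with the series value table. Day 7 against day 3 had 1 with quantile normalization, the median, no filter, the mean over probes and every probe as its own feature. Over the 14 settings that kept all RNA samples, its count ranged from 0 to 3. With no filter all 7 genes were tested, so that the counts of that setting include Cry1 in day 3 against day 0, day 7 against day 0 and day 14 against day 7, and Cry1 and Npas2 in the F-test. Most readings of Cry1 and Npas2 were not well above background. Nfil3 was not called at day 3 with no filter (adjusted p = 0.0853). Day 14 against day 7 had 1 with the median and with no filter, and the F-test had 4 when probes had to be above background on all arrays, with no filter and with the series value table. With 1 RNA sample left out, the members called ranged from 0 to 1 for day 3 against day 0, 0 to 2 for day 7 against day 0, 0 to 2 for day 7 against day 3, 0 to 1 for day 14 against day 7 and 0 to 3 for the F-test.

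With no slide term, Rora turned to -0.109 (day 3 against day 0), -0.135 (day 7 against day 0), 0.0146 (day 14 against day 0), 0.149 (day 14 against day 7) and 0.123 (day 14 against day 3), Clock to 0.315 (day 14 against day 7) and 0.127 (day 14 against day 3), Nfil3 to 0.0523 (day 14 against day 0) and Nr1d1 to 0.107 (day 7 against day 0). When the slide 1 arrays of day 0 were also left out, Rora turned to -0.254 and -0.28 (day 3 and day 7 against day 0) and to 0.149 and 0.123 (day 14 against day 7 and day 3), Clock to 0.315 and 0.127 and Nr1d1 to 0.785. Clock in day 14 against day 7 turned to 0.0124 with the percentile over probes above background everywhere, and Rora in day 7 against day 3 to 0.00309 with the median. With 1 RNA sample left out, the range reached the other direction for Clock in day 14 against day 7 (-0.157 to 0.0243, highest without sample 4 of day 14), Rora in day 7 against day 3 (-0.13 to 0.0375, highest without sample 2 of day 3), Nfil3 in day 14 against day 0 (-0.264 to 0.0325, highest without sample 4 of day 14) and Arntl in day 7 against day 0 (-0.486 to 0.0795, highest without sample 2 of day 7).

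Whether the replicate numbers pair the samples is not given in the labels and was not settled here. The reported fits did not pair them. Of 19 same-numbered pairs, 5 had correlated deviations over 0.1 (median 0.05). Of 54 pairs with different numbers, 7 did (median -0.01). For 7 of 14 RNA samples, the sample of another day that correlated best had the same number. With a replicate block, 1 member was called in day 7 against day 3, Nfil3, and Cry2 was not (adjusted p = 0.0718).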
